A study of Mus musculus with 12 samples.

Results

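The genes described here encode the machinery with which macrophages sense IFNG (interferon gamma) and IL4 (interleukin 4): the receptor chains Ifngr1, Ifngr2, Il4ra, Il2rg and Il13ra1, the Janus kinases Jak1, Jak2, Jak3 and Tyk2, and the phosphatase Ptpn2. They were chosen by name, with earlier results of these data known. Each was sought as a row name of the count files or as 1 part of a joined row name. All 10 of 10 were found among 19549 features. Each of the 10 passed the filter on low counts, as did 10421 features in all. Bone marrow of naive female FVB mice had been differentiated into macrophages (BMDMs), and every culture then received 1 of the cytokines for 4 h, either IFNG at 200 units/mL or IL4 at 40 ng/mL. RNA was taken both as total mRNA and as polysome-associated mRNA, the messages sedimenting with more than 3 ribosomes. The 4 groups were therefore IFNG total, IL4 total, IFNG polysome and IL4 polysome, with 3 libraries in each and 12 in all. Because no group lacked a cytokine, a difference can come from IFNG, from IL4 or from both. The labels give no age and no word on whether replicates were separate animals or cultures, so the tests measure the spread between these libraries, which may be technical.

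IFNG binds a receptor of IFNGR1 and IFNGR2 chains, to which the kinases JAK1 and JAK2 are bound, and the activated receptor passes the signal on to transcription factors of the STAT family. IL4 first binds the IL4RA chain, which then recruits a partner: the common gamma chain IL2RG, bound to JAK3, forms the type I receptor of blood cells, and IL13RA1, bound to TYK2, forms the type II receptor, which IL13 uses as well. JAK1 is bound to IL4RA, and STAT6 is the main factor activated by IL4. PTPN2 is a phosphatase that switches off JAK1 and JAK3.

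Total counts ran from 2563955 to 22014162 per library, and 3 counts were worth 0.184 to 1.13 CPM, the unit of all levels below (read counts scaled to a common library size with TMM factors). Irf1 and Arg1 followed the labels. The IFNG target Irf1 lay between 128 and 511 CPM in the 6 IFNG libraries and between 7.90 and 29.0 CPM in the 6 IL4 libraries. The IL4 target Arg1 lay at 324 to 1215 CPM with IL4 and at 0 to 1.55 CPM with IFNG. Socs1, another IFNG target, overlapped, at 40.0 to 272 CPM in IFNG total against 12.5 to 60.3 CPM in IL4 total. On polysomes it lay at 15.8 to 177 against 3.13 to 41.6 CPM. Its difference did not pass in either fraction (adjusted p = 0.142 and 0.12 from edgeR). All 10 macrophage markers were detected in every group, with a summed level of 17385 to 29108 CPM in IFNG total, 8225 to 14868 in IL4 total, 11022 to 16779 in IFNG polysome and 7679 to 8733 in IL4 polysome. Among T and NK cell markers Cd3e, Cd3g, Cd8a and Ncr1 had 0 counts in all 12 libraries, and the summed level of the 8 markers found was 14.7 to 40.3 CPM, most of it from a row that joins Cd247 with Pou2f1. Dendritic cell markers, of which Flt3 had 0 counts, summed to 8.50 to 26.9 CPM in IFNG total against 0.552 to 1.23 in IL4 total, and to 17.2 to 44.6 against 0.681 to 1.42 CPM on polysomes. Most of their counts came from Xcr1 (633 over the 12 libraries) and Clec9a (441), while Zbtb46, Siglech and Ccr7 had 57, 28 and 8. Neutrophil markers summed to 10.1 to 33.5 against 1.08 to 4.54 CPM in total mRNA and to 3.57 to 8.13 against 0.545 to 4.16 CPM on polysomes. The macrophage and dendritic cell sums thus moved with the cytokine in both fractions, and the neutrophil sum did in total mRNA but overlapped on polysomes. Several genes below moved with the cytokine too, and the part of these cell types in those results was not tested. In these bulk libraries fewer cells of a type and less RNA per cell cannot be told apart. Lars2, a gene that took 1.78 to 29.3% of the counts of the polysome libraries, is left out in 1 alternative.

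Upstream sequences are shown for the genes at the extremes of the results: Il13ra1 and Il2rg, which differed most between the cytokines in total mRNA, and Ifngr2, which differed most between polysome-associated and total mRNA. Each is the 250 bases before the annotated start, 5′ to 3′ on the gene's own strand, from the RefSeq promoter table for GRCm38.p6 (a C57BL/6J reference, while the mice were FVB). Windows of 9 of the 10 genes, all but Ptpn2, were taken.
Il13ra1 (chrX:36111858-36112107, plus strand): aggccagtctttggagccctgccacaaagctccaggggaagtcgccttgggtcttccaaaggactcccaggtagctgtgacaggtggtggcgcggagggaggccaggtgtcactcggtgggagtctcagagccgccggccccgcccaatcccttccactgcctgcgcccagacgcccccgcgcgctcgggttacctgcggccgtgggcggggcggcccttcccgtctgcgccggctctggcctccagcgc
Il2rg (chrX:101268256-101268505, minus strand): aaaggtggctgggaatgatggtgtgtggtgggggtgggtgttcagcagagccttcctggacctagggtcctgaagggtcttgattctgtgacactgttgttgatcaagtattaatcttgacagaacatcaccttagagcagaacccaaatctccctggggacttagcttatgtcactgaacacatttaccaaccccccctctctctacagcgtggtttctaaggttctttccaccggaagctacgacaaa
Ifngr2 (chr16:91546809-91547058, plus strand): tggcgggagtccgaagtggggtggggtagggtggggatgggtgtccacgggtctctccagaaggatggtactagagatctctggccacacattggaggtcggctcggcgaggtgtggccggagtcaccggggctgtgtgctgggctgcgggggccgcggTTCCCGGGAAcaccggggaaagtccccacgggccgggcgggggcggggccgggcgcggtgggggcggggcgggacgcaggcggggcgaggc
The capitals in Ifngr2 mark its match to TTCNNNNGAA, a STAT site with a spacing of 4, the form STAT6 is known to prefer, at bases 91 to 82 before the start. Altogether 3 letter patterns were searched on both strands in all 9 windows: TTCNNNNGAA, TTCNNNGAA (a STAT site with a spacing of 3) and GAAANNGAAA (an interferon regulatory factor site). This was the only match, so the windows of Il13ra1 and Il2rg are printed without capitals. Among 21262 windows of the same length before protein-coding genes, 5.39% held TTCNNNNGAA, 6.58% held TTCNNNGAA and 2.96% held GAAANNGAAA. The windows of Ifngr2 and Il13ra1 were 74.0% and 70.8% G and C, that of Il2rg 49.2%, and the median window 55.6%.

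In total mRNA, 4 of the 10 genes were higher with IFNG than with IL4 at an edgeR adjusted p under 0.05, namely Il13ra1, Il2rg, Jak2 and Jak3, and 0 were lower, as in each alternative run. Over all 10421 features 11% were called, 7.08% higher and 3.93% lower. On polysomes the same 4 and Il4ra were higher, 5 of 10, and 0 were lower, again in each alternative run, against 7.54% higher and 6.58% lower among all features, 14.1% in sum. The median log2 fold change of the 10 genes was 1.25 in total mRNA and 1.54 on polysomes, beside 0.04 and -0.06 over all features. Because the genes were chosen with earlier results of these data known, these comparisons with all features are descriptive. All 3 IFNG libraries lay above all 3 IL4 libraries for 4 of the genes in total mRNA and for 7 on polysomes. Of all features 13.4% and 15.2% did so. For Ptpn2 on polysomes this held with TMM factors but not without them. Total and polysome RNA were drawn from the same cell populations, per the labels' protocols, so the fractions are not separate evidence, although the labels do not say which libraries belong together. Leaving out 1 library moved the number of genes called higher in total mRNA as far as 2 (without IFNG total replicate 2 or IL4 total replicate 2) or 6 (without IFNG total replicate 3). Jak3 was also lost without IFNG total replicate 1 or IL4 total replicate 3, and Jak2 without IL4 total replicate 1. Il4ra was gained without IFNG polysome replicate 1. Leaving out any total library thus changed which genes were called.

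**Figure D1:**
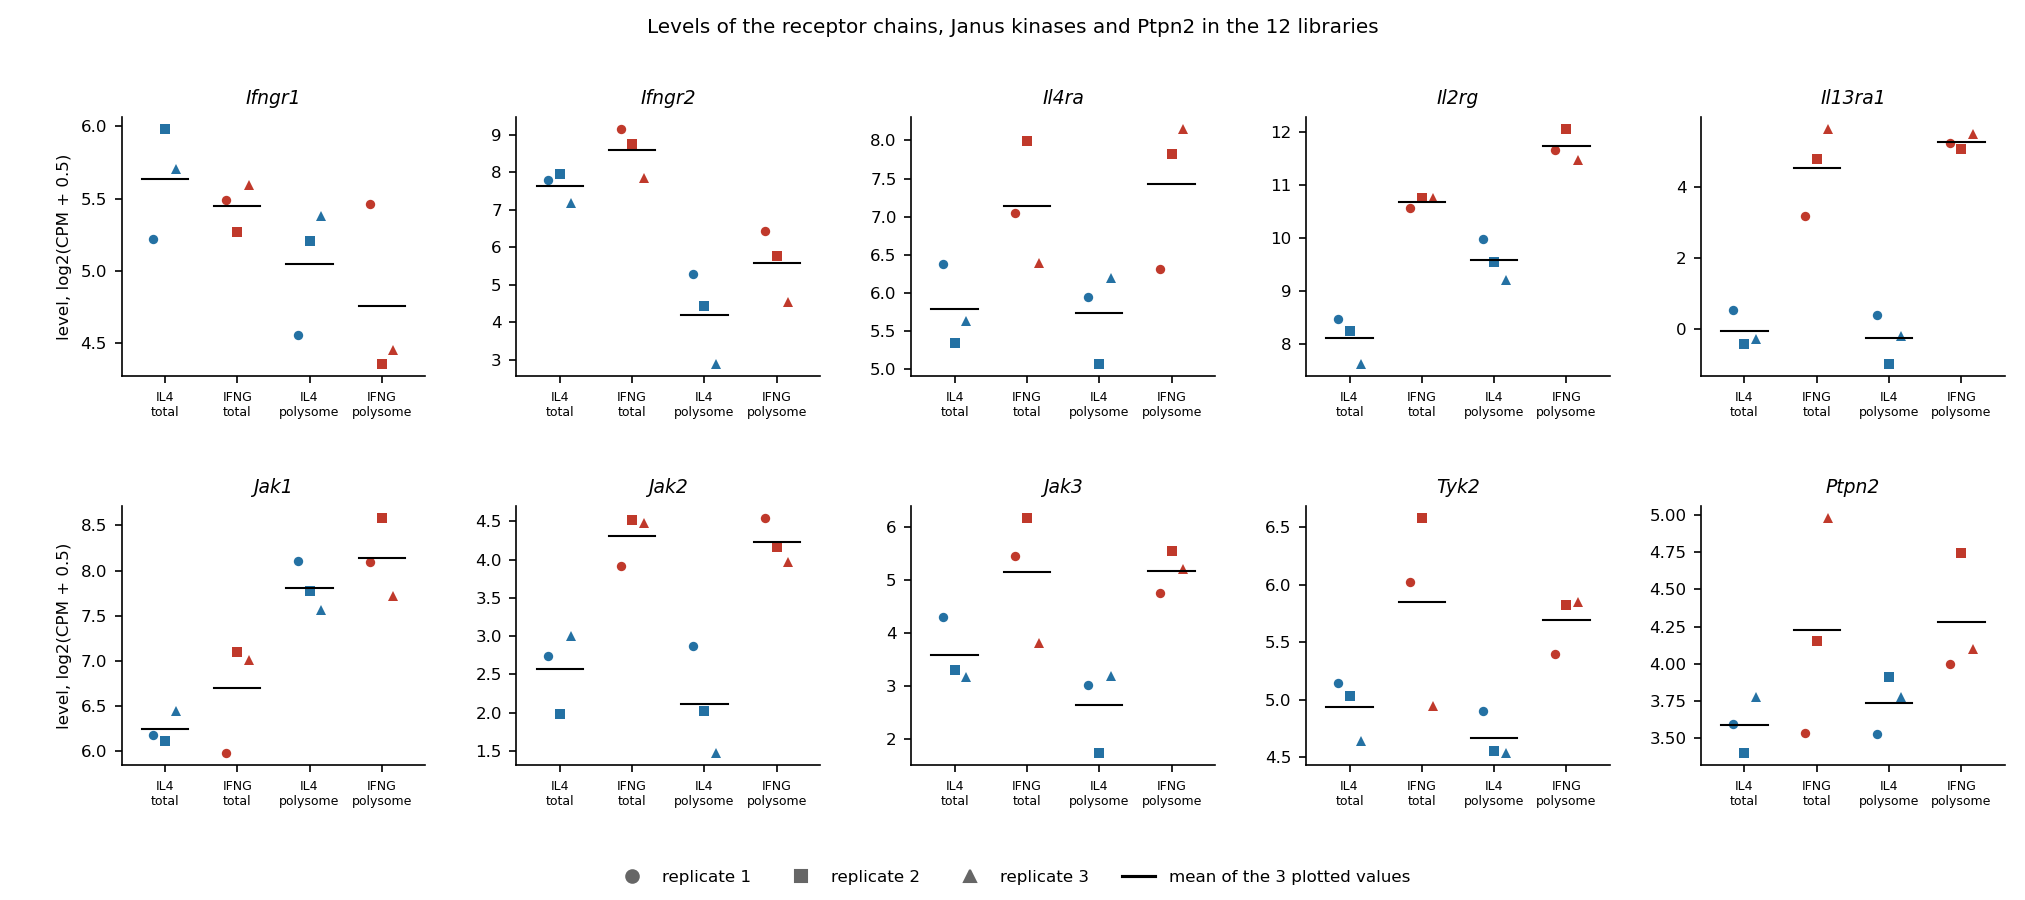
Level of each gene in the 12 libraries, as log2(CPM + 0.5) on an axis of its own, by group, with IL4 libraries in blue, IFNG libraries in red, a marker shape for each replicate number and a bar at the mean of the 3 plotted values. Il13ra1, Il2rg, Il4ra and Jak2 separate the cytokines in both fractions, Il4ra narrowly. Ifngr2 and Jak1 separate the fractions, and Ifngr1 overlaps between the cytokines.

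Of the IFNG receptor chains neither passed the test between the cytokines. Ifngr1, the chain that binds IFNG (chromosome 10, 19591949 to 19610229 of GRCm38), measured 44.4, 38.1 and 47.8 CPM in the IFNG total libraries and 36.8, 62.8 and 51.6 CPM in those of IL4. On polysomes it measured 43.6, 20.0 and 21.4 CPM with IFNG and 23.0, 36.5 and 41.2 CPM with IL4. The groups overlapped in both fractions. The log2 fold change was -0.21 (95% interval -1.06 to 0.63, adjusted p = 0.872) in total mRNA and -0.23 (-1.09 to 0.64, adjusted p = 0.781) on polysomes, and both intervals held 0.

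Ifngr2, the signalling partner chain (chromosome 16, 91547059 to 91564007), had higher means with IFNG without passing. It measured 573, 431 and 230 CPM in IFNG total and 221, 249 and 144 CPM in IL4 total, and the third IFNG library lay among those of IL4. The polysome libraries held 85.5, 53.6 and 22.5 CPM with IFNG against 38.1, 21.2 and 6.81 CPM with IL4. In each of the 4 groups replicate 3 was the lowest library. The log2 fold change was 1.01 (SE 0.54, adjusted p = 0.3) in total mRNA and 1.27 (SE 0.55, adjusted p = 0.133) on polysomes. With the replicate number as a block the polysome difference passed (log2 fold change 1.34, adjusted p = 0.0228 from edgeR), and it also did without IL4 polysome replicate 1 (adjusted p = 0.0498; 0.0228 to 0.407 over all alternatives).

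Il13ra1, the chain that pairs with IL4RA in the type II receptor (chromosome X, 36112108 to 36171262), differed most of the 10 between the cytokines, and it was the IFNG libraries that held it. With IFNG the total libraries held 8.43, 26.6 and 48.8 CPM, and with IL4 they held 0.943, 0.245 and 0.316 CPM. The polysome libraries held 37.2, 33.0 and 44.3 CPM with IFNG and 0.817, 0 and 0.378 CPM after IL4. The groups lay far apart in both fractions. The IL4 levels rest on few reads, 22 counts over the 3 total libraries and 7 over the 3 polysome libraries, against 927 and 699 with IFNG. Il13ra1 was 55.4-fold higher with IFNG in total mRNA (log2 fold change 5.79, SE 0.71, adjusted p = 4.03e-06) and 73.8-fold higher on polysomes (log2 fold change 6.21, SE 0.79, adjusted p = 9.04e-06). The size rests on single libraries: the log2 fold change in total mRNA was 5.08 without IFNG total replicate 3, 6.57 without IL4 total replicate 1 and 4.56 with thinned libraries, and on polysomes 7.61 without IL4 polysome replicate 1. Only 89 and 94 of the 10421 features had a larger positive fold change. Among the IFNG total libraries the level varied more than among the IFNG polysome libraries, with SDs of 20.2 and 5.73 CPM around means of 28.0 and 38.2 CPM.

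Il2rg, the common gamma chain (chromosome X, 101264385 to 101268255), was higher with IFNG in both fractions. It measured 1504, 1715 and 1725 CPM in IFNG total against 355, 303 and 195 CPM in IL4 total, a 5.80-fold difference (log2 fold change 2.54, SE 0.42, adjusted p = 0.000211). On polysomes it measured 3220, 4261 and 2831 CPM against 1004, 749 and 588 CPM, a 4.40-fold difference (log2 fold change 2.14, SE 0.42, adjusted p = 0.00113). The 4 groups did not overlap, in the order IL4 total, IL4 polysome, IFNG total and IFNG polysome from low to high. The call held in each of the alternatives run, with adjusted p from 2.86e-10 to 0.00293 in total mRNA and from 1.15e-07 to 0.0131 on polysomes.

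Il4ra, the chain that binds IL4 (chromosome 7, 125552271 to 125579474), lay above the IL4 libraries in all IFNG libraries of each fraction. It measured 131, 253 and 83.5 CPM in IFNG total and 82.8, 40.0 and 49.2 CPM in IL4 total, where the lowest IFNG library and the highest IL4 library nearly met. On polysomes it measured 79.0, 226 and 284 CPM with IFNG and 61.3, 32.9 and 72.6 CPM with IL4. The test passed on polysomes (log2 fold change 1.82, SE 0.52, adjusted p = 0.0204) and not in total mRNA (log2 fold change 1.44, SE 0.51, adjusted p = 0.0732). Neither side of that line was firm. The polysome call was lost without IFNG polysome replicate 2 (adjusted p = 0.0623) or 3 (0.0706) and without IL4 polysome replicate 1 (0.0524) or 2 (0.113), within 0.00184 to 0.113 over its alternatives. In total mRNA the difference passed with no filter on low counts (adjusted p = 0.0205), without IFNG total replicate 3 (0.0309) and without IFNG polysome replicate 1 (0.0296), within 0.0205 to 0.506 over its alternatives.

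**Figure D2:**
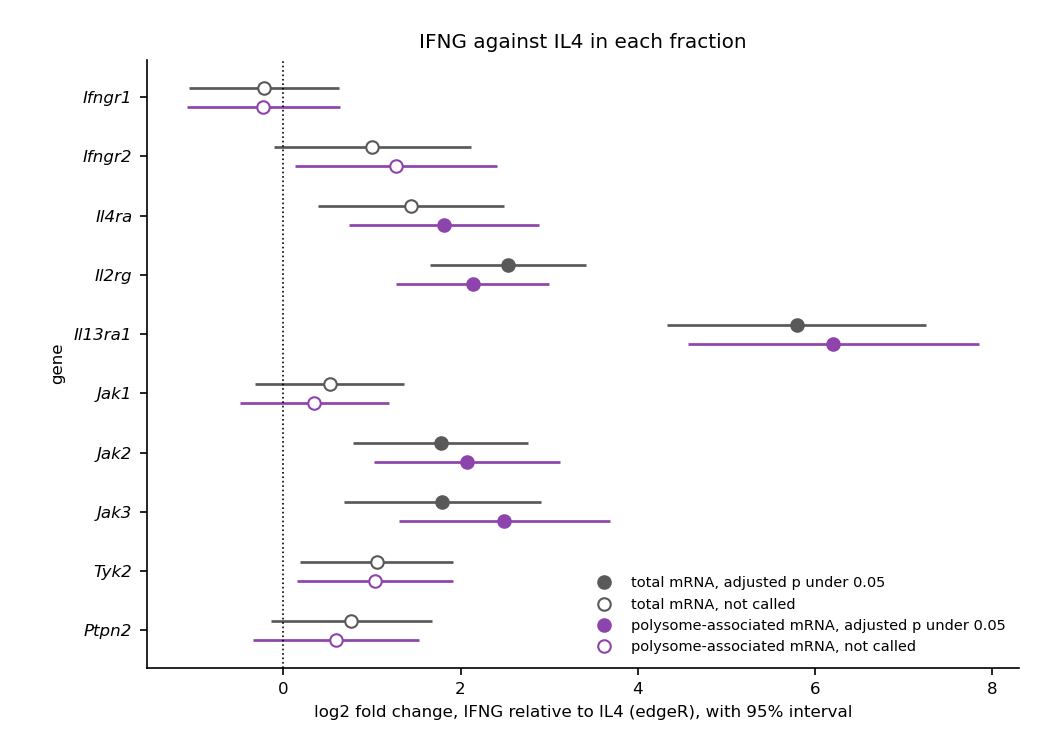
Log2 fold change of IFNG relative to IL4 for each gene, from edgeR, with its 95% interval, in total mRNA (grey) and polysome-associated mRNA (purple). Filled points passed an adjusted p of 0.05: Il13ra1, Il2rg, Jak2 and Jak3 in both fractions and Il4ra on polysomes.

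Among the Janus kinases, Jak2 and Jak3 were higher with IFNG and Jak1 and Tyk2 did not pass. Jak2, the kinase bound to IFNGR2 (chromosome 19, 29251803 to 29313095), measured 14.6, 22.3 and 21.8 CPM in IFNG total against 6.16, 3.43 and 7.53 CPM in IL4 total. Its polysome levels were 22.9, 17.4 and 15.1 CPM against 6.81, 3.54 and 2.27 CPM, the latter from 50, 10 and 6 counts. No IFNG library overlapped an IL4 library. The difference was 3.43-fold in total mRNA (log2 fold change 1.78, SE 0.48, adjusted p = 0.0151) and 4.21-fold on polysomes (log2 fold change 2.07, SE 0.50, adjusted p = 0.00729). In total mRNA the call was lost with thinned libraries (adjusted p = 0.0864), without IFNG total replicate 2 (0.0665) and without IL4 total replicate 1 (0.0508) or 2 (0.112), within 0.00153 to 0.112 over its alternatives. On polysomes the log2 fold change was 2.67 without IL4 polysome replicate 1.

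Jak3, the kinase bound to IL2RG (chromosome 8, 71676383 to 71690577), is counted in a row joined with Insl3, a hormone gene of 1326 bases that lies wholly within the Jak3 span, so reads of the pair cannot be told apart. The row measured 43.6, 72.1 and 13.6 CPM in IFNG total and 19.3, 9.44 and 8.54 CPM in IL4 total, with the third IFNG library below the first IL4 library. On polysomes it measured 26.4, 46.2 and 36.6 CPM against 7.63, 2.83 and 8.70 CPM, without overlap. Those IL4 levels rest on 56, 8 and 23 counts. The log2 fold change was 1.79 (SE 0.54, adjusted p = 0.0312) in total mRNA and 2.49 (SE 0.57, adjusted p = 0.00467) on polysomes. The total mRNA call was lost without IFNG total replicate 1 (adjusted p = 0.0649) or 2 (0.293, log2 fold change 1.15), without IL4 total replicate 2 (0.14) or 3 (0.139), and with limma on the authors' log2 values (0.0902), within 0.00315 to 0.293 over its alternatives.

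Jak1, which serves both receptors (chromosome 4, 101151974 to 101265282), is counted in a row joined with Raver2, an RNA-binding protein gene whose span overlaps that of Jak1 by 397 bases. The row measured 62.5, 136 and 128 CPM in IFNG total and 71.9, 68.8 and 86.7 CPM in IL4 total, and the groups overlapped. With IFNG and IL4 on polysomes the values were 273, 384 and 211 CPM and 275, 218 and 188 CPM, overlapping again. The log2 fold change was 0.53 (95% interval -0.32 to 1.37, adjusted p = 0.548) in total mRNA and 0.35 (-0.49 to 1.19, adjusted p = 0.639) on polysomes.

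Tyk2, the kinase bound to IL13RA1 (chromosome 9, 21104068 to 21131393), measured 64.3, 95.3 and 30.4 CPM in IFNG total against 34.9, 32.2 and 24.4 CPM in IL4 total, where only the third IFNG library overlapped. Its polysome levels were 41.8, 56.1 and 57.3 CPM against 29.4, 23.0 and 22.7 CPM, which did not overlap. The log2 fold change was 1.05 (SE 0.42, adjusted p = 0.121) in total mRNA and 1.04 (SE 0.42, adjusted p = 0.11) on polysomes. Without IFNG total replicate 3 both passed (adjusted p = 0.03 and 0.0411, within 0.03 to 0.673 and 0.0411 to 0.273 over their alternatives).

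Ptpn2, the phosphatase (chromosome 18, 67665501 to 67724632), measured 11.1, 17.3 and 31.1 CPM in IFNG total and 11.6, 10.1 and 13.2 CPM in IL4 total, and on polysomes 15.5, 26.3 and 16.6 CPM with IFNG and 11.04, 14.5 and 13.2 CPM with IL4. The total groups overlapped and the polysome groups did not, although 15.5 and 14.5 CPM lay close together. Neither difference passed (log2 fold change 0.77, adjusted p = 0.347 in total mRNA, and 0.60, adjusted p = 0.434 on polysomes).

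The replicates of 1 group did not vary alike from gene to gene. Among the IFNG total libraries Il4ra, Jak3 and Tyk2 were highest in replicate 2 and lowest in replicate 3, while Il13ra1 and Ptpn2 were lowest in replicate 1 and highest in replicate 3. Over the 12 libraries, the log2 profiles of Il4ra and Tyk2 lay nearest to each other among the 45 pairs of members, with a root mean square difference of 0.55 after centring each on its mean, followed by Il4ra and Jak3 at 0.56. The farthest pair was Ifngr2 and Il13ra1 at 2.83.

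The ratio of a pair of genes within a library does not depend on library scaling. It was taken, as the log2 ratio of counts plus 0.5, for pairs of the chains and kinases named above. Not all pairs are partners: Il2rg and Jak3 serve the type I receptor, Il13ra1 and Tyk2 the type II receptor. Only the difference of a ratio between groups is compared, since the genes' lengths differ. The ratio of Il4ra to Il13ra1 differed between IFNG and IL4 by -4.25 in total mRNA and by -4.71 on polysomes, and that of Il2rg to Il13ra1 by -3.04 and -4.26, so both were lower with IFNG. The polysome values include the IL4 library with 0 counts of Il13ra1. In these 4 cases the IFNG and IL4 libraries did not overlap. The ratio of Jak1 to Jak2 differed by -1.37 and -1.88, again without overlap. That of Jak3 to Tyk2 was higher with IFNG by 0.67 with overlap in total mRNA and by 1.56 without overlap on polysomes. In the IL4 polysome libraries Jak2 had only 6 to 50 counts and the Jak3 row 8 to 56. For Ifngr1 to Ifngr2 (-1.13 and -1.69) and Il4ra to Il2rg (-1.21 and -0.45) the libraries overlapped in both fractions. With 3 libraries against 3, the smallest p of the two-sided exact permutation test is 0.1, which the 7 cases without overlap reached, and the smallest value adjusted over the 12 tests was 0.171, so this test could not reach 0.05 here. On leaving out 1 library, the Il4ra to Il13ra1 difference ran from -4.90 to -3.31 in total mRNA (the latter without IFNG total replicate 3) and from -5.10 to -4.17 on polysomes (the latter without IFNG polysome replicate 1). That of Il2rg to Il13ra1 ran from -3.67 to -2.50 in total mRNA (without IFNG total replicate 1 and 3) and from -4.62 to -3.60 on polysomes (without IL4 polysome replicate 3 and 2). The range for Ifngr1 to Ifngr2 on polysomes was -2.49 to -0.84 (without IL4 polysome replicate 1 and 3).

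**Figure D3:**
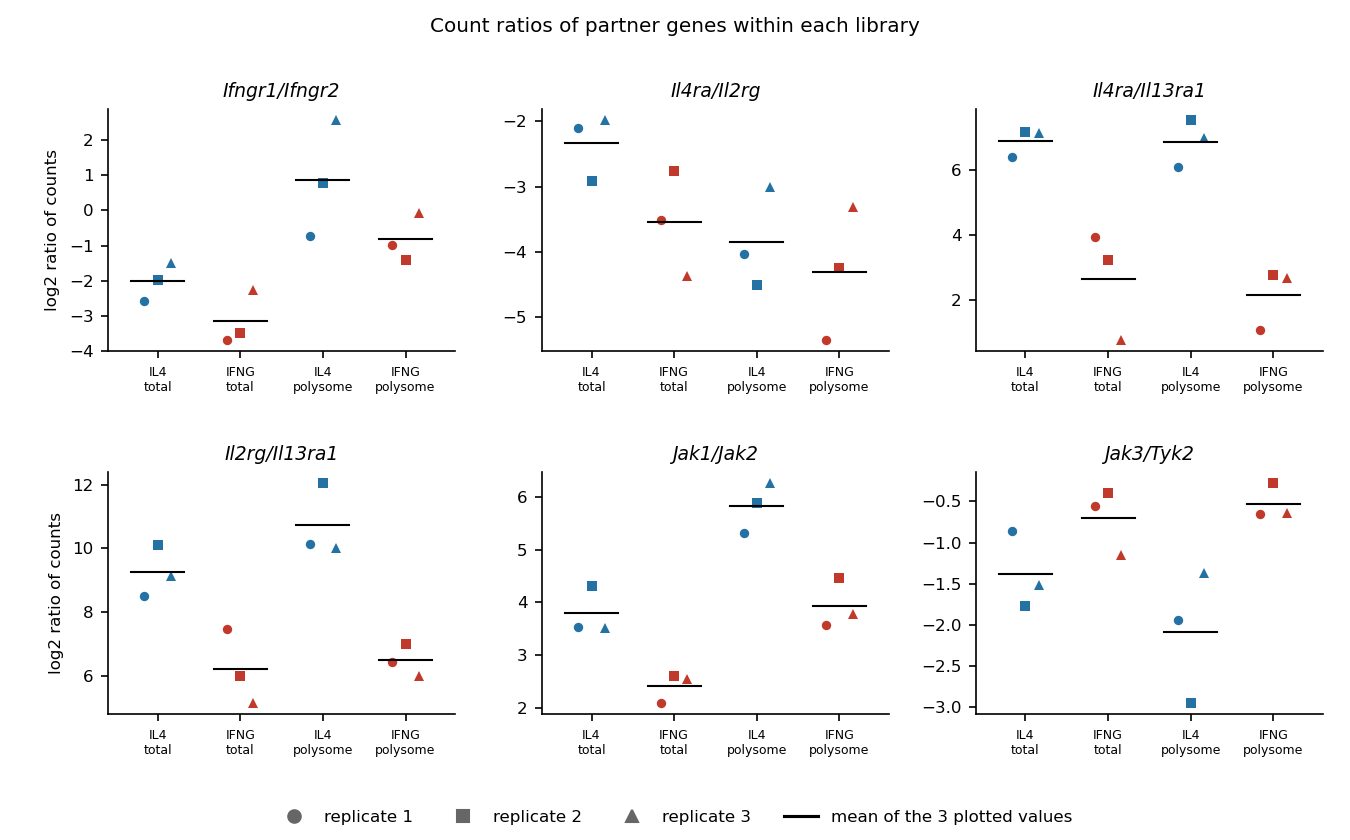
Log2 ratio of the counts of 6 pairs of receptor chain or kinase genes in each of the 12 libraries, by group. IL4 libraries are in blue and IFNG libraries in red, with a bar at the mean of 3. The ratios of Il4ra and of Il2rg to Il13ra1 and of Jak1 to Jak2 separate the cytokines in both fractions, while those of Ifngr1 to Ifngr2 and of Il4ra to Il2rg overlap.

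Polysome-associated mRNA differed from total mRNA, averaged over the cytokines, for 3 of the 10 genes. Il2rg and Jak1 were higher on polysomes and Ifngr2 was lower, 2 and 1 of 10, where 48.2% of all features were called, 22.6% higher and 25.7% lower, so these genes were called no more often than features at large. Levels in each fraction are relative to the other messages of that fraction.

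Ifngr2 stood out by size. Its 6 polysome libraries, 6.81 to 85.5 CPM, all lay below its 6 total libraries, 144 to 573 CPM, as did 10.5% of all features. The difference was 8.32-fold (log2 -3.06, SE 0.41, adjusted p = 9.49e-06), and 10234 of the 10421 features had a higher value. It was present with each cytokine, at -3.02 with IFNG and -3.45 with IL4 as differences of mean log2(CPM + 0.5), and the call held in each alternative run. Its partner Ifngr1 measured -0.60 (95% interval -1.21 to 0.01, adjusted p = 0.0944) and did not pass. That value passed without Lars2 (log2 -0.74, adjusted p = 0.0418) and without IFNG polysome replicate 1 (log2 -0.84, adjusted p = 0.0241), within 0.0241 to 0.219 over its alternatives.

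Jak1 showed the opposite direction. The row of Jak1 and Raver2 lay at 188 to 384 CPM in the 6 polysome libraries and at 62.5 to 136 CPM in the 6 total libraries, without overlap, as did 6.69% of all features in that direction. It was 2.82-fold higher on polysomes (log2 1.50, SE 0.29, adjusted p = 0.000322), with differences of 1.44 with IFNG and 1.57 with IL4. Il2rg was 2.39-fold higher on polysomes (log2 1.26, SE 0.29, adjusted p = 0.00121), and within each cytokine its polysome libraries all lay above its total libraries. For the remaining genes the log2 difference ran from -0.59 for Jak3 to 0.24 for Il13ra1, and their intervals all held 0. Jak3 passed without IFNG total replicate 3 (log2 -0.82, adjusted p = 0.0476, within 0.0476 to 0.534 over its alternatives).

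**Figure D4:**
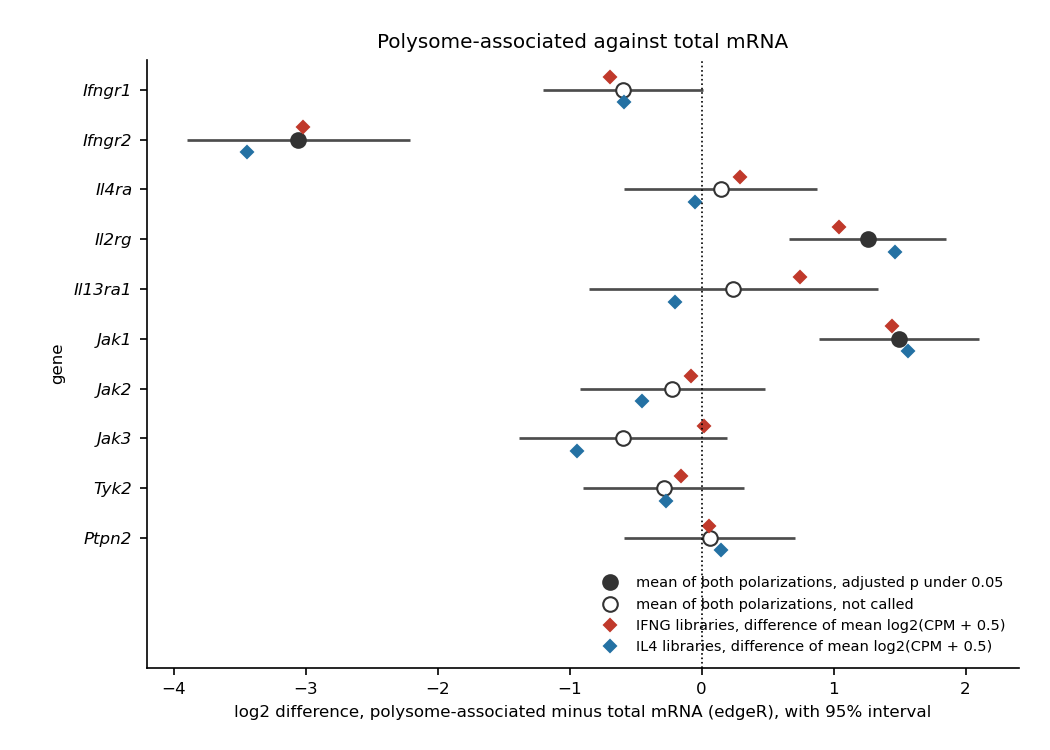
Log2 difference of polysome-associated minus total mRNA for each gene, from edgeR over both cytokines, with its 95% interval (black, filled where the adjusted p is under 0.05), and the difference of mean log2(CPM + 0.5) within the IFNG libraries (red) and the IL4 libraries (blue). Ifngr2 lies near -3 with both cytokines, and Il2rg and Jak1 lie above 1 with both.

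Whether IFNG and IL4 differed on polysomes beyond total mRNA was tested as an interaction. None of the 10 genes passed, and 0 of 10421 features did with edgeR, 0% of them, although 176 had an unadjusted p under 0.05. DESeq2 called 1 feature and limma on the authors' log2 values 1, neither of them among the 10. The members' values ran from -0.40 for Il2rg (95% interval -1.57 to 0.78) to 0.70 for Jak3 (-0.88 to 2.27), and the interval of Il13ra1 was -1.79 to 2.62. Intervals of this width do not show that the fractions responded alike.

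Other genes of these pathways were read from 7 lists with 64 genes, of which 54 were tested. In total mRNA 12 were higher and 4 lower with IFNG, and on polysomes 13 and 3, where 7.08% and 3.93% of all features were called in total mRNA and 7.54% and 6.58% on polysomes. The medians were 0.39 and 0.37 beside 0.04 and -0.06 over all features. The lists, too, were chosen with earlier results of these data known, so these shares are descriptive. Between the fractions 21 of the 54 were higher and 6 lower on polysomes, where 22.6% and 25.7% of all features were. Among the STAT factors, which carry the signal to the nucleus, Stat2 averaged 90.1 ± 29.8 CPM in IFNG total and 8.15 ± 2.82 CPM in IL4 total (mean ± SD, n = 3; log2 fold change 3.46, adjusted p = 1.88e-05 from edgeR). Stat3 averaged 202 ± 65.1 against 54.4 ± 10.1 CPM there and was higher too (adjusted p = 0.00347 from edgeR). Stat6 averaged 151 ± 47.7 against 158 ± 37.9 CPM in total mRNA and did not pass (log2 fold change -0.07, adjusted p = 0.959 from edgeR). Stat4, Stat5a and Stat5b did not pass either, at 1.14, 0.16 and 0.33 in total mRNA and 0.64, -0.32 and -0.03 on polysomes. On polysomes the call of Stat3 was lost without IL4 polysome replicate 2 (adjusted p = 0.0575).

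Feedback inhibitors went both ways. Of 8 SOCS family genes, whose proteins block receptors and kinases, 1 was higher and 3 lower in total mRNA. On polysomes 2 were higher and 3 lower. Among all features 7.08% were higher and 3.93% lower in total mRNA, and 7.54% and 6.58% on polysomes. Socs3 measured 48.9 ± 12.7 CPM with IFNG against 4.68 ± 3.80 CPM with IL4 in total mRNA. Cish measured 0.570 ± 0.413 against 11.8 ± 6.86 CPM there, and Socs2 0.474 ± 0.242 against 18.4 ± 19.8 CPM on polysomes, where the IL4 libraries themselves spread widely. Socs2 in total mRNA, and Socs7 (58.2 against 15.9 CPM) and Socs5 (27.5 against 63.9 CPM) on polysomes, complete the called genes of this family, named after their values were seen. Socs6 measured 7.76 ± 0.156 against 18.5 ± 3.24 CPM in total mRNA (adjusted p = 0.0361), a call lost on leaving out any 1 of the 6 total libraries (adjusted p from 0.0512 to 0.137) or IL4 polysome replicate 2 (0.0547), with no filter (0.0798), with thinned libraries (0.064) and with only the groups compared (0.0671). Of 10 other negative regulators 2 were higher in each fraction. Usp18, which restrains type I interferon receptors, measured 320 ± 99.6 against 9.02 ± 4.56 CPM in total mRNA. Ptpn6, a phosphatase of blood cells, measured 594 ± 178 against 182 ± 60.6 CPM there, and its call was lost without IL4 total replicate 3 (adjusted p = 0.0665). Sh2b3, an adaptor that restrains JAK2, was higher on polysomes (124 ± 64.6 against 35.9 ± 8.11 CPM), a call lost without IFNG polysome replicate 3 (adjusted p = 0.0501) or IL4 polysome replicate 2 (0.0558).

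Chains that join IL2RG in other receptors were higher with IFNG in 3 of 4 tested cases in each fraction. The shares among all features were 7.08% higher and 3.93% lower in total mRNA, and 7.54% and 6.58% on polysomes. Il15ra, the chain for IL15, measured 17.3 ± 4.05 against 0.543 ± 0.0776 CPM in total mRNA and 22.1 ± 8.54 against 0.753 ± 0.347 CPM on polysomes. Il21r, the chain for IL21, measured 77.2 ± 12.6 against 29.6 ± 11.96 CPM in total mRNA, and its call was lost without IFNG total replicate 1 (adjusted p = 0.0743) or 2 (0.124) and without IL4 total replicate 2 (0.133) or 3 (0.149). Its polysome call was lost without IL4 polysome replicate 3 (adjusted p = 0.0686). The other called chain, Il2ra, is named after its values were seen. It had 1.20 CPM with IFNG in total mRNA and 0 counts with IL4. Il2rb and Il9r, with 5 and 0 counts over the 12 libraries, were not tested. Of 11 tested chains of the type I interferon, IL10, IL6 and IL12 receptors 3 were higher in each fraction. These were Il10ra (118 ± 42.9 against 23.9 ± 5.20 CPM in total mRNA) and the IL12 receptor chains Il12rb1 (160 ± 90.5 against 6.16 ± 2.52 CPM) and Il12rb2 (28.8 ± 14.6 against 3.73 ± 0.371 CPM). Of 5 tested beta chain and homodimeric receptor genes the smallest adjusted p was 0.146, for the G-CSF receptor Csf3r on polysomes. Of 9 tested genes of the insulin receptor substrate arm of IL4 signalling 1 was lower in total mRNA, the adaptor Gab1 (0.449 against 4.75 CPM, log2 fold change -3.37, adjusted p = 0.00158 from edgeR), named after its values were seen. On polysomes Gab1 had the smallest adjusted p of that list, 0.0532. Il13ra2, a decoy receptor of IL13, had 5 counts over the 12 libraries.

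For the 5 genes called between the cytokines, the 3 features with the most similar log2 profile over the 12 libraries were sought among 6984 features of at least 10 CPM on average. Likeness was the root mean square difference after centring, which was 1.25 to 2.74 for the median feature. Il13ra1 lay nearest to Gbp7 (0.44), an interferon-induced GTPase, then Cd38 (0.61), an ectoenzyme that consumes NAD, and Slco3a1 (0.66), a transporter. Il2rg lay nearest to Cyfip2 (0.32), Oas2 (0.32) and Lpp (0.33), Jak2 to Suco (0.33), Lamp2 (0.35) and Lyn (0.37), Jak3 to Parp10 (0.41), Tbkbp1 (0.42) and Stk40 (0.47), and Il4ra to Zbtb7b (0.30), Dmwd (0.34) and Tbkbp1 (0.35).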

How the data were processed

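The authors deposited, for each library and gene symbol, an unnormalized count and, per the file headers, a TMM-normalized log2 value, the latter for 11006 of 19549 features. The submitters' processing notes list HISAT2, HISAT and limma with the mm10 build but no versions. For the counting tool, strand setting and gene models the entry is "not given in the sources used here", so overlapping genes cannot be told apart, and 830 features join several symbols. Counts were filtered with filterByExpr, scaled by TMM and fitted in edgeR 4.0.16 (R 4.3.3; limma 3.58.1 and DESeq2 1.42.0 as alternatives) as 1 quasi-likelihood model of 4 groups and 12 libraries, with Benjamini-Hochberg adjustment over all 10421 features tested. SE is the log2 fold change divided by the root of the F statistic, and intervals use the moderated degrees of freedom. The code was tested on simulated data with 100 genes changed at each size. There 5% of log2 changes of 1 passed in total mRNA and 0% on polysomes, and of changes of 2, 58% and 48%. Fewer genes changed there than were called in the real data, 1148 in total mRNA and 1472 on polysomes. The adjustment was therefore stricter in the simulation, and these shares may understate what could pass in the real data. A difference near 1 that did not pass, as for Ifngr2 and Tyk2, is thus not shown to be absent. The 95% intervals and floors of 3 counts cover this spread and counting error only. Total counts of 2563955 to 22014162 set the precision, which is lowest for Il13ra1 with IL4.

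The members and lists were chosen with earlier results of these data known. Named pathway genes were up to 3 called members per list and comparison with the largest change and at least 10 CPM in 1 group. Deviations from group means of same-numbered IFNG and IL4 libraries correlated at 0.15 to 0.75 in total mRNA and 0.16 to 0.36 on polysomes (6984 features). Those of differently numbered libraries correlated at -0.70 to 0.40 and -0.38 to 0.23. All same-numbered correlations were thus positive, but the ranges overlap, so they do not establish that a number marks a shared block. The replicate block is given, as an alternative, beside a result whose call it changes. Levels per kilobase were not computed, since no transcript lengths were used here, and genes are not ranked by level. A gene of the pathway lists is counted in their totals and is not reported here.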

Additional observations from a re-analysis of the deposited data

How the results depend on the processing

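The interaction values lie near 0 and changed sign most often. Ifngr1 measured 0.0087 with DESeq2 size factors, 0.013 with DESeq2, 0.10 with upper quartile scaling or without Lars2, and 0.21 with only features of at least 10 CPM. Tyk2 measured 0.0302 with DESeq2 size factors, 0.0293 with DESeq2, 0.12 with upper quartile scaling or the authors' log2 values, 0.10 without Lars2, 0.079 with limma voom, 0.23 with features of at least 10 CPM and 0.0102 with thinned libraries. With features of at least 10 CPM, Jak1 measured 0.0441 and Ptpn2 0.0426. Between polysome-associated and total mRNA, Ptpn2 measured -0.0766 without Lars2 and Il13ra1 -0.31 with thinned libraries. Over all features the interaction called 1 lower with DESeq2, 1 lower with limma on the authors' log2 values, and 1 higher and 4 lower with no filter. Without Lars2, 2 of the 10 genes were lower on polysomes. The cause was not tested for these changes.

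Leaving out each library in turn gave interactions of -0.48 to 0.25 for Ifngr1, -0.24 to 0.94 for Ifngr2, -0.36 to 1.81 for Il13ra1, -0.43 to 0.17 for Jak1, -0.21 to 0.56 for Tyk2 and -0.45 to 0.44 for Ptpn2. The polysome against total values ran from -0.054 to 0.42 for Il4ra, -0.46 to 0.63 for Il13ra1 and -0.086 to 0.29 for Ptpn2. The Il4ra to Il2rg ratio difference on polysomes ran from -0.94 to 0.072, above 0 without IFNG polysome replicate 1. All-feature calls ran from 509 to 805 higher and 237 to 481 lower in total mRNA, and from 496 to 1001 higher and 351 to 960 lower on polysomes. Of the 10 genes, 2 to 6 were higher with IFNG in total mRNA and 4 to 6 on polysomes, and 1 to 2 were lower on polysomes than in total mRNA.

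With the replicate block Tyk2's interaction was 0.064, and 0.10 with the block by preparation. The block made the Ifngr2 polysome difference pass and changed no other call of the 10 genes or the named pathway genes. Among all features it raised the calls between IFNG and IL4. In total mRNA 738 higher and 410 lower became 850 and 584, and on polysomes 786 and 686 became 911 and 896. Same-numbered total and polysome libraries correlated at -0.08 to 0.44 with IFNG and 0.01 to 0.40 with IL4, so a shared number is not taken as a shared preparation, which the labels do not settle. Between fractions, 2353 higher and 2675 lower calls became 2371 and 2659 with the block by preparation, and 2514 and 2734 with the block on the number alone. Levels per kilobase were not run, and ratios with 0 added gave no value for the polysome ratios with Il13ra1. Of 1604 alternative values of single genes, 1512 kept direction and side of the threshold. Depth limits Il13ra1 with IL4, at 7 counts over the polysome libraries.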
